A study of Homo sapiens with 7 samples.

Results

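G3 and G13 are the libraries with the lowest RBFOX2 totals among 7 libraries of HUES66, an established line of human embryonic stem cells. They were chosen by their summed RBFOX2 TPM, a read count scaled to the same total in each library, which was 42.1 in G3 and 55.9 in G13. The library next above them was G11 with 82.9 TPM, and the others lay at 88.5 (G12), 96.8 (G5), 106 (G14) and 107 (control). Because the RBFOX2 level chose them, their totals are a description and support nothing further. The same holds for low TPM ranks of the isoforms that make up those totals. Each side of the comparison is 1 library, so no difference below has a replicate check, no test across genes was run, and every interval covers counting error only. What belongs to the guide and what belongs to the single culture and its library cannot be told apart.

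Both cultures carry the genotype RBFOX2 isoform KD in the labels, with id 178147 for G3 and id 178145 for G13. The control is labelled WT. All 7 cultures, the control included, are marked piggyBac (a transposon used to insert DNA into a genome), were given doxycycline at 1 µg/ml, and the time point was 24 h in each. The study directed Cas13d, a nuclease that a guide RNA leads to a matching RNA, at single RBFOX2 isoforms. Which isoform an id stands for, and whether a culture is 1 clone, is not given in the labels.

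RBFOX2 encodes an RNA-binding protein that recognises a short motif beside exons and favours or blocks their inclusion depending on the side it binds. The gene has more than 1 promoter, so its messages differ in the first exon, and alternative internal exons change the protein further. In embryonic stem cells it is known as a regulator of a large set of alternative exons, many of them in genes of the cytoskeleton, of adhesion and of splicing itself.

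The depth implied by the deposited values was 17848098 reads in G3 and 22794332 in G13, so 3 reads were worth 0.168 and 0.132 TPM. The table lists 386982 isoforms, each of which had at least 1 read in the control, and these held 98.1% of the G3 reads and 98.6% of the G13 reads. Of the 10 stem cell markers, 9 were read in both libraries; POU5F1 stood at 588 TPM in G3 and 566 TPM in G13, while SOX2 was listed at 0 in all 7 libraries. Markers of neural, mesodermal and endodermal cells summed to between 0 and 0.18 TPM per library, and those of trophoblast or amnion to between 0.93 and 2.41 TPM. Of 7 fibroblast markers, THY1, which stem cells also carry, made up nearly the whole sum, and COL3A1, DCN and LUM were listed at 0. The labels give RNA integrity as high for the samples together and not per library. In RNA from a whole culture, fewer cells with a message and less of it per cell cannot be told apart.

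The annotated RBFOX2 isoforms differ at their first exon and at the left edge of a pair of coding exons, and these edges are shown first because G3 and G13 differ in which forms were left. In GENCODE 29 (GRCh38) the gene runs from 36028425 down to 35738736 of chromosome 22, on the minus strand. The proximal first exon spans 35840192 to 35840284 in ENST00000416721.6 and the distal one 36028240 to 36028425 in ENST00000438146.7. Of the 106 RBFOX2 isoforms listed, 60 began at the proximal exon, 29 at the distal exon and 17 elsewhere, judged by their 5′ end. The exon ending at 35781600 begins at 35781743 (144 nt) or 3 bases earlier at 35781746 (147 nt). The exon ending at 35759888 begins at 35760020 (133 nt) or 12 bases earlier at 35760032 (145 nt). Each line below gives the spliced, coding-strand RNA as DNA letters, 5′ to 3′, starting 30 bases before the junction, and capitals mark the bases that only the longer exon holds.
144-nt exon: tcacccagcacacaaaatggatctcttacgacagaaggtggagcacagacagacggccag
147-nt exon: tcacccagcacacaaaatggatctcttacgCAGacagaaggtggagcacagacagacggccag
133-nt exon: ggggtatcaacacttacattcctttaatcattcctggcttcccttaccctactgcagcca
145-nt exon: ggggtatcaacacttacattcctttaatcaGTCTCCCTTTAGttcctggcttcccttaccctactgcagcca

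G3 and G13 reached their low totals with different RBFOX2 isoforms. G3 held 751 RBFOX2 reads and G13 held 1275, a ratio of G3 to G13 of 0.752 (95% interval 0.686 to 0.824). Proximal isoforms stood at 12.6 TPM in G3, the lowest of the 7 libraries, against 47.2 TPM in G13 and 77.7 TPM in the control. Distal isoforms stood at 27.6 TPM in G3, the highest of the 7, against 7.19 TPM in G13 and 25.2 TPM in the control. G13 was thus 3.74-fold higher in proximal isoforms (3.24 to 4.34) and G3 was 3.83-fold higher in distal ones (3.20 to 4.60). Only G5, with 3.46 TPM, lay below G13 in distal isoforms.

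Among reads of either first exon, the proximal share was 31.4% in G3 (225 of 717 reads, Wilson 95% interval 28.1 to 34.9) and 86.8% in G13 (1075 of 1239 reads, 84.8 to 88.5). The difference of G3 minus G13 was -55.4 percentage points (-59.1 to -51.4). The other 5 libraries lay between 75.5% in the control and 96.3% in G5, so that G3 stood below all of them and G13 stood among them. In reference-ID isoforms alone the difference was -21.4 points; the isoforms with the largest differences carry hashed IDs.

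The 8 isoforms below held 81.1% of the RBFOX2 reads of G3 and 87.9% of those of G13. The first 5 each held at least 5% of the gene's total on average over the libraries, and the other 3 were added after their values were seen. Hashed IDs mark isoforms without a reference ID; hashed isoforms 1 and 2 are proximal, and hashed isoforms 3 and 4 are distal.

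ENST00000416721.6, proximal and with the 144-nt and 133-nt exons, is the leading isoform in the control. It had 59 reads in G3 (3.31 TPM) and 131 in G13 (5.75 TPM), while the control stood at 28.1 TPM and G5, G11, G12 and G14 between 15.6 and 45.2 TPM. Both libraries lay below the other 5, and the ratio of G13 to G3 was 1.74 (1.27 to 2.41). This isoform held 26.7% of the RBFOX2 total on average over the libraries. That total chose G3 and G13, so their low rank here is a description. ENST00000449924.6, proximal with the 144-nt and 145-nt exons, had 40 reads in G3 (2.24 TPM) and 77 in G13 (3.38 TPM). The control had 13.99 TPM of it, and only G11, with 1.78 TPM, lay lower than G3. For ENST00000449924.6 the ratio of G13 to G3 was 1.51 (1.02 to 2.27). In these annotated proximal isoforms G13 was therefore higher than G3, and both stood far below the control.

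The hashed proximal isoforms separated the libraries more widely. Hashed isoform 1, at 35743138 to 35840486, had 47 reads in G3 (2.63 TPM) and 473 in G13 (20.8 TPM), a ratio of G13 to G3 of 7.88 (5.83 to 10.9). Hashed isoform 2, at 35742418 to 35840464, had 29 reads in G3 (1.62 TPM) and 292 in G13 (12.8 TPM), also 7.88-fold (5.37 to 11.98). Together they made up 37.1% and 22.9% of the RBFOX2 reads of G13, against 14.4% and 6.66% in the control. At the level of TPM, G13 held more of both than the control, which had 15.5 and 7.14 TPM. G3 and G14 were the low libraries for hashed isoform 1, and G11, G3 and G14 were those for hashed isoform 2.

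The hashed distal isoforms ran the other way. Hashed isoform 3, at 35743911 to 36028777, had 195 reads in G3 (10.9 TPM) and 15 in G13 (0.658 TPM), 16.6-fold higher in G3 (9.82 to 30.2). Hashed isoform 4, at 35743599 to 36028799, had 97 reads in G3 (5.43 TPM) and 8 in G13 (0.351 TPM), 15.5-fold higher in G3 (7.55 to 36.9). The levels of G3 were close to those of the control, which had 9.28 and 5.06 TPM, so the gap came from the low side of G13. For hashed isoform 3 G13 was the lowest of the 7 libraries, and for hashed isoform 4 G11 was at 0.336 TPM beside it.

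The annotated distal isoforms differed less. ENST00000695854.1 had 93 reads in G3 (5.21 TPM) and 81 in G13 (3.55 TPM), a ratio of G3 to G13 of 1.47 (1.08 to 2.00). ENST00000438146.7, with the 147-nt and 145-nt exons, had 49 reads in G3 (2.75 TPM) and 44 in G13 (1.93 TPM), 1.42-fold (0.929 to 2.19), an interval that includes 1. G14, G5 and G12 lay lower than both for ENST00000695854.1.

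**Figure D1:**
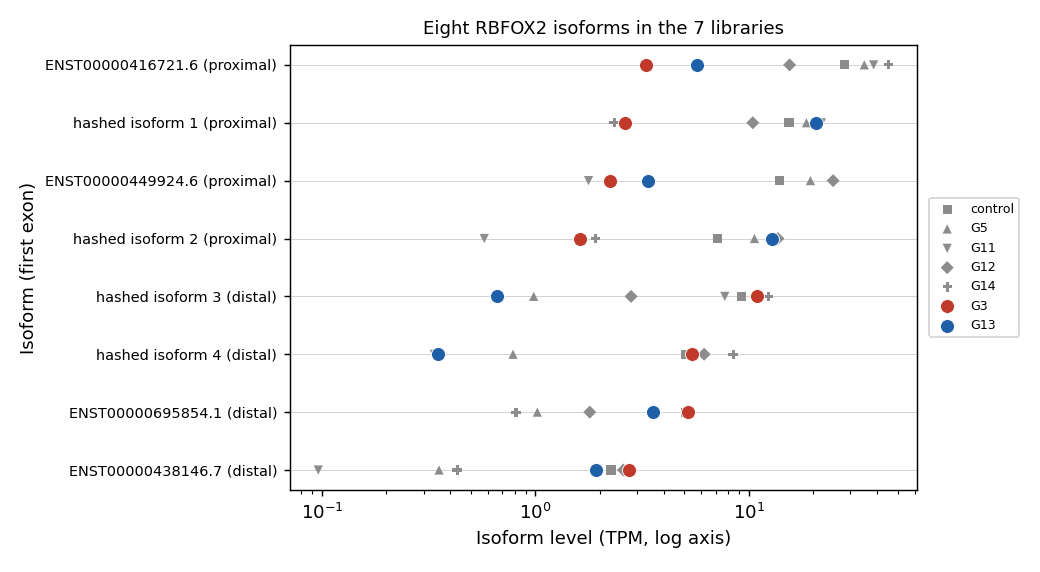
Level of 8 RBFOX2 isoforms (TPM, log axis) in the 7 libraries, 1 point per library, with G3 in red, G13 in blue and the other 5 in grey. G13 lies to the right of G3 in the 4 proximal isoforms and to the left in the 4 distal ones, by the widest gaps in hashed isoforms 3 and 4.

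Among annotated isoforms with either form of the exon, the 144-nt form made up 63.1% in G3 (101 of 160 reads, 55.4 to 70.2) and 75.8% in G13 (216 of 285 reads, 70.5 to 80.4), against 90.8% in the control. The 147-nt form was thus higher in G3 than in G13 by 12.7 points (3.82 to 21.6). For the other exon the 145-nt form made up 56.9% in G3 (49.1 to 64.3) and 45.3% in G13 (39.6 to 51.1), 11.6 points higher in G3 (1.93 to 21.0), against 36.7% in the control. Every isoform here carries a first exon and both exon edges at once, so these shares are not independent of the first-exon shares. Hashed isoforms have no exon structure in the deposited table and did not enter these shares. The distal ENST00000695854.1, with 93 reads in G3 and 81 in G13, did not enter them either. The shares rest on 160 of the 751 RBFOX2 reads of G3 and on 285 of the 1275 of G13.

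By 3′ end, RBFOX2 reads ending at 35743138 held 6.26% in G3 and 37.1% in G13, and those ending at 35742418 held 3.86% and 22.9%. Each of these ends belongs to 1 isoform, hashed isoform 1 and hashed isoform 2, so the values repeat their shares. RBFOX2 reads ending between 35743911 and 35744001 held 61.4% in G3 and 28.0% in G13. Taken over all isoforms, the usage distance between the libraries was 0.583; this total variation distance is 0 where all isoform shares of a gene are equal and 1 where none is shared. Among the 21 pairs of libraries it ranged from 0.286 (control and G5) to 0.737 (G13 and G14), and G3 and G13 came after G3 and G5 (0.662) and G3 and G11 (0.626).

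Gene totals had a wider spread of log2 ratios between G3 and G13 than between any other pair. They were compared as log2 of the ratio G3 over G13 after 0.5 TPM was added to each, which understates weakly expressed genes, for 7878 genes with a mean of at least 5 TPM over the 7 libraries. The SD of the log2 ratios was 0.994, against between 0.310 (G11 and G12) and 0.854 (control and G14) for the other 20 pairs. At least 2-fold higher in G3 were 1478 genes (18.8% of those compared), and at least 2-fold lower were 187 (2.37%). Control and G14 had more genes past 2-fold, with 1487 higher and 313 lower in the control. At 4-fold the counts were 507 and 5, and at 16-fold they were 81 and 0. The median log2 ratio was 0.17, so a typical gene was slightly higher in G3; after scaling by the median of ratios, a shift of 0.18, the counts were 1212 higher and 361 lower. The higher genes made up 88.8% of both counts as deposited, 77.0% after that scaling and 53.5% after the length and GC trend was removed, with 579 higher and 504 lower.

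The genes past 2-fold were also placed among the other 5 libraries; since they were selected on the ratio of G3 to G13, these positions are a description. Of the 1478 higher genes, 1109 (75.03%) had G3 above and G13 below all other 5 libraries, 210 had only G3 outside, 119 had only G13 outside and 40 had neither. Their median GC content was 57.9% and their median length 3023 nt, against 47.9% and 2604 nt over all genes compared. On the log2 scale the other libraries lay between them: at the median gene G5 stood 77.7% of the way from G13 to G3, the control 73.3%, G11 46.0%, G14 30.4% and G12 27.1%. Of the 187 lower genes, 66 had G3 below and G13 above the rest, 55 had only G3 outside, 21 had only G13 outside and 44 had neither, while in 1 gene both lay outside on the same side.

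The ratio moved with the GC content and the length of the transcripts. Genes were put in 5 bins of equal size. In the bin with the lowest GC content (up to 41.1%) the median log2 ratio was -0.05, and 3.94% were at least 2-fold higher in G3. The middle bin had a median of 0.09 and 11.6% higher. In the highest bin (58.0% and above) the median was 0.91, and 46.6% were higher. By length, the shortest bin (up to 1615 nt) had a median of -0.17, with 91 genes higher and 92 lower, and the next bins had 0.18, 0.31, 0.29 and 0.35. The 87 genes in both the highest GC bin and the longest bin had a median of 2.67, and 80 of them were at least 2-fold higher in G3. The 143 genes in both the lowest GC bin and the shortest bin had a median of -0.38, with 2 higher and 16 lower. A second-degree surface fitted to length (log2) and GC together accounted for 44.6% of the variance of the ratios, and the SD fell to 0.737 once it was subtracted. Whether the composition of the transcripts is the reason for the ratios was not tested.

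**Figure D2:**
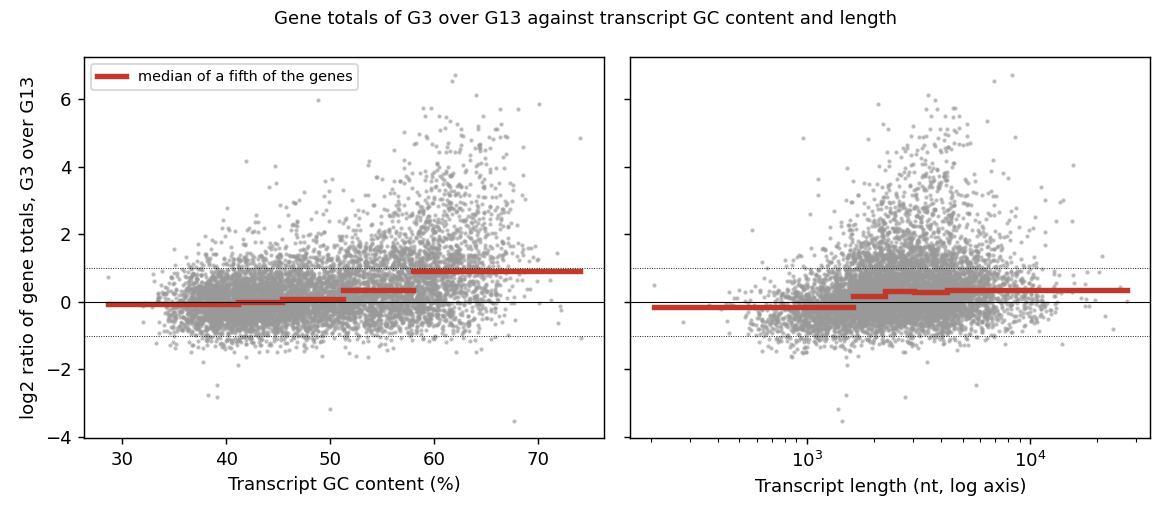
Log2 ratio of gene totals, G3 over G13, against the GC content (%) and the length (nt, log axis) of the gene's transcripts, 1 grey point per gene. Red bars are medians of 5 bins of equal size, from -0.05 to 0.91 along GC content and from -0.17 to 0.35 along length; dotted lines mark 2-fold.

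What these compositions look like is shown by 60 bases from the middle of the coding sequence of 6 genes, the 3 highest and the 3 lowest in G3 over G13 among genes with a mean of at least 20 TPM and a GENCODE 29 match. The windows are on the coding strand, 5′ to 3′, in GRCh38 coordinates that include an intron for AKT2, PSMC3IP and TOP2A, and capitals mark G and C. RAVER1 lies at chr19:10322680-10322739 (minus), AKT2 at chr19:40238049-40238921 (minus), CBX2 at chr17:79784211-79784270 (plus), IGFBP2 at chr2:216660572-216660631 (plus), PSMC3IP at chr17:42573606-42574140 (minus) and TOP2A at chr17:40403012-40404168 (minus).
RAVER1: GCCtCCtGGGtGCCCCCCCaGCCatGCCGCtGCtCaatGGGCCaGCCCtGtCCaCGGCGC
AKT2: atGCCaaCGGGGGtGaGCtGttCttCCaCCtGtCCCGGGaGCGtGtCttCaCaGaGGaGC
CBX2: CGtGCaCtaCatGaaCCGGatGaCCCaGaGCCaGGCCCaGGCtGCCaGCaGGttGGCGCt
IGFBP2: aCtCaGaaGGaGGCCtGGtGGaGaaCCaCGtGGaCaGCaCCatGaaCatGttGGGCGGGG
PSMC3IP: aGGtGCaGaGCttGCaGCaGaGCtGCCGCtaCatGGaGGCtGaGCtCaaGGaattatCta
TOP2A: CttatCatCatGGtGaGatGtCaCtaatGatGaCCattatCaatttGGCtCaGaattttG
G and C made up 45 of the 60 bases in RAVER1, 37 in AKT2, 39 in CBX2, 36 in IGFBP2, 32 in PSMC3IP and 21 in TOP2A. The whole transcripts held 64.0%, 58.3%, 59.7%, 67.7%, 49.6% and 39.1%. The IGFBP2 transcript, at 1439 nt, is richer in G and C than those of RAVER1, AKT2 and CBX2.

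The 10 genes with the highest ratios all had G3 as the highest and G13 as the lowest of the 7 libraries. RAVER1, which encodes a protein that binds the splicing regulator PTB, had 149 TPM in G3 and 1.66 TPM in G13, between which lay 79.2 (control), 79.6 (G5), 17.0 (G11), 10.4 (G12) and 4.99 TPM (G14). G3 was 89.1-fold higher than G13 (64.8 to 126). AP2A1, a subunit of the clathrin adaptor AP-2, had 64.0 TPM in G3 and 0.65 TPM in G13 with 15 reads, 97.3-fold (58.8 to 174). AKT2, a serine/threonine kinase of the insulin pathway, had 104 and 1.46 TPM, 69.9-fold (49.8 to 101). CBX2, a Polycomb protein, had 114 and 1.65 TPM, 68.5-fold (49.8 to 97.1). In all 4 the control and G5 came next after G3, and G11, G12 and G14 lay below them.

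POLRMT, the mitochondrial RNA polymerase, had 105 TPM in G3 and 1.53 TPM in G13, 68.2-fold (48.9 to 98.3). SLC7A5, a transporter of large neutral amino acids, was the most abundant of the group with 315 TPM in G3, 6.65 TPM in G13 and 160 TPM in the control, 47.2-fold (40.2 to 55.9). MAP1S and MAP7D1, which bind microtubules, were 59.9-fold and 50.4-fold higher in G3. SCAP, the escort protein of the SREBP transcription factors, was 45.9-fold higher, and VARS1, the valyl-tRNA synthetase, 35.6-fold. Transcript GC content of the 9 genes with a GENCODE 29 match ran from 58.9% (AKT2) to 68.1% (MAP1S). After the trend was removed their log2 ratios still ran from 2.36 (VARS1) to 3.73 (AKT2).

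The genes with the lowest ratios were led by IGFBP2 and PSMC3IP. IGFBP2, a secreted protein that binds insulin-like growth factors, had 311 TPM in G3 and 3591 TPM in G13. Its level was 3823 (control), 1475 (G5), 2538 (G11), 4362 (G12) and 4701 TPM (G14) elsewhere, so G3 alone lay apart and G13 lay within the others. G13 was 11.5-fold higher than G3 (11.2 to 11.9). With the trend removed its log2 ratio moved from -3.53 to -4.84, the lowest among the genes of at least 20 TPM. PSMC3IP, a partner of the meiotic recombinase DMC1, had 10.2 TPM in G3 and 95.5 TPM in G13, 9.41-fold (8.09 to 11.02), but G14 was also low with 14.3 TPM.

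TOP2A, the topoisomerase of mitotic chromosomes, had 5.60 TPM in G3 and 33.2 TPM in G13, 5.94-fold (4.81 to 7.39). The control was lower than G3, with 4.36 TPM, and G14 was higher than G13, with 39.0 TPM, so neither library was at the end of the range. H3-3B, which encodes the replication-independent histone H3.3 and has close copies in the genome, had 5149 TPM in G3 and 14492 TPM in G13, 2.81-fold (2.79 to 2.84). The other 6 were between 2.88-fold and 3.18-fold higher in G13. They were SPP1 (osteopontin), DPCD, IFITM1 (an interferon-induced membrane protein), GAP43 (a growth cone protein), PSMB4 (a proteasome subunit) and RARRES2 (chemerin). G3 was the lowest of the 7 libraries in all 6.

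**Figure D3:**
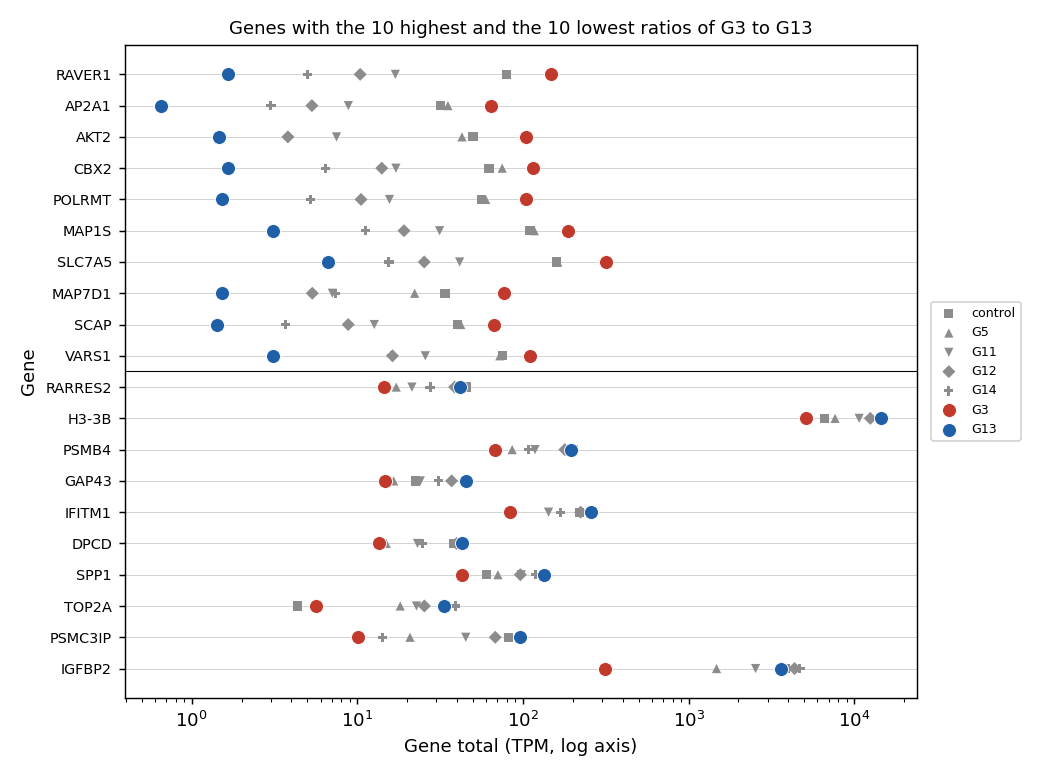
Gene totals (TPM, log axis) in the 7 libraries for the 10 highest and the 10 lowest ratios of G3 to G13 among genes with a mean of at least 20 TPM, G3 in red, G13 in blue and the other 5 in grey. In the upper 10 the libraries spread from G13 (0.65 to 6.65 TPM) to G3 (64.0 to 315 TPM), and in the lower 10 the gaps are narrower, the widest being that of IGFBP2 at 11.5-fold.

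RBFOX target genes are those whose exons RBFOX proteins are known to regulate; 28 of the 40 listed were expressed enough to compare. In this list 6 were at least 2-fold higher in G3, or 6 of 28 against 18.8% of all genes, and none was 2-fold lower; with the trend removed 6 were higher and 3 lower. The median log2 ratio was 0.59 against 0.17 over all genes, and 0.06 against -0.04 with the length and GC trend removed. FLNA, the actin cross-linker filamin A, had 56.8 TPM in G3 from 1013 reads and 0.04 TPM in G13 from 1 read. The control had 24.0, G5 17.2, G11 0.20, G12 0.30 and G14 0.05 TPM, so 3 libraries beside G13 were near 0, and the ratio of 1294 has an interval of 232 to 51149. Its transcripts average 8277 nt with 62.0% GC. PTPRF, a receptor tyrosine phosphatase, had 25.0 TPM in G3 and 0.13 TPM in G13 from 3 reads, a ratio of 190 (64.5 to 924).

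CLSTN1, calsyntenin 1, had 41.0 TPM in G3 and 0.78 TPM in G13, 51.9-fold (32.6 to 88.1). The growth factor receptor FGFR1 had 92.1 and 9.39 TPM, 9.81-fold (8.50 to 11.4), and the kinase MARK3 had 65.9 and 18.8 TPM, 3.49-fold (3.12 to 3.91). ACTN4, an alpha-actinin, had 215 and 101.9 TPM, 2.11-fold (2.00 to 2.22), but its trend-removed log2 ratio was -0.55. At the other end EWSR1, an RNA-binding protein, had 1647 TPM in G3 and 2444 TPM in G13, a ratio of 0.674 (0.664 to 0.684), and TPM1, a tropomyosin, had 367 and 371 TPM, a ratio of 0.990 (0.958 to 1.02).

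Splicing regulators and known RBFOX partners had a median log2 ratio of 0.39, with 11 of 40 at least 2-fold higher in G3 and none lower, against 18.8% and 2.37% of all genes. With the trend removed the median was 0.30, with 4 higher and none lower. KHDRBS1 (Sam68) had 127 TPM in G3 and 12.9 TPM in G13, 9.87-fold (8.74 to 11.2). It lay at 45.4 TPM in the control, 30.8 in G5, 18.2 in G11, 11.6 in G12 and 42.8 in G14, so G3 stood apart and G13 did not. Its GC content of 47.5% is near the median, and its trend-removed log2 ratio was 3.10. PTBP1, the polypyrimidine tract binding protein, had 282 and 67.9 TPM, 4.16-fold (3.93 to 4.403), but 0.55 on the log2 scale with the trend removed. ILF2, a double-stranded RNA-binding protein, went the other way with 2303 and 4152 TPM, a ratio of 0.555 (0.548 to 0.561), and HNRNPK, an abundant member of the HNRNP family, had 3729 and 4238 TPM.

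Factors of nonsense-mediated decay, which degrades messages with an early stop codon, had a median of 0.52, with 4 of 11 at least 2-fold higher and none lower, against 18.8% and 2.37% of all genes. With the trend removed 2 were higher and 1 lower. Over the settings tried the median ran from -0.59 to 0.71, turning negative among genes of at least 20 TPM and with the trend removed. UPF3B, which links the exon junction complex to UPF2, had 20.3 TPM in G3 and 0.65 TPM in G13 from 15 reads, 30.8-fold (18.4 to 55.6), at a GC content of 41.9%. SMG5 had 70.7 and 3.62 TPM, 19.4-fold (15.5 to 24.6). PNRC2 had 196 and 353 TPM, and EIF4A3, the core helicase of the exon junction complex, 1369 and 2060 TPM.

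Of 15 pluripotency genes compared, 4 were at least 2-fold higher in G3 and none was lower, against 18.8% and 2.37% of all genes. The median log2 ratio was 0.23 against 0.17 over all genes, and 0.24 with the trend removed, where 3 were higher and 1 lower. PODXL, a sialomucin of the stem cell surface, had 84.5 TPM in G3 and 15.3 TPM in G13, 5.52-fold (4.91 to 6.22). DNMT3B, a de novo DNA methyltransferase, had 68.1 and 13.4 TPM, 5.07-fold (4.47 to 5.76), and LIN28A, which blocks let-7 processing, had 179 and 73.2 TPM, 2.44-fold (2.30 to 2.60). In PODXL and DNMT3B G3 was the highest and G13 the lowest of the 7 libraries. POU5F1 differed by a ratio of 1.04 (1.013 to 1.07), DPPA4 by 1.11 (1.09 to 1.14) and DPPA2 by 0.580 (0.475 to 0.706). Of the early differentiation genes only 3 of 24 were expressed enough to compare (KRT18, OTX2 and VIM), with log2 ratios from 0.04 to 0.46.

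Cytoskeletal and adhesion genes had a median of 0.54, with 9 of 33 at least 2-fold higher in G3 and none lower, against 18.8% and 2.37% of all genes. With the trend removed the median was 0.22, with 4 higher and 2 lower. ACTB, which encodes beta-actin, had 25917 TPM in G3 and 10980 TPM in G13, 2.36-fold (2.35 to 2.37), with the other 5 libraries between 11984 and 20321 TPM. MYH9, a non-muscle myosin heavy chain, had 40.2 and 2.41 TPM, 16.6-fold (12.6 to 22.3). CTNNB1, which encodes beta-catenin, had 52.5 and 80.5 TPM, a ratio of 0.652 (0.602 to 0.706), with G3 the lowest library. Solute carriers had a median of 0.38 and 39 of 132 higher with none lower, against 18.8% and 2.37% of all genes, which became 0.06 with 9 higher and 7 lower after the trend was removed.

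Proteasome subunits, respiratory chain subunits and mitochondrial ribosomal proteins had medians below 0. Proteasome subunits had a median log2 ratio of -0.40, unchanged at -0.41 with the trend removed, and 30 of 34 lay below 0, of which 6 were at least 2-fold lower in G3 against 2.37% of all genes; with the trend removed 4 were lower. PSMA2, a subunit of the core ring, had 490 TPM in G3 and 1300 TPM in G13, with 1288 TPM in the control. PSMD4, the ubiquitin receptor of the cap, had 864 and 1983 TPM. Its level was 836 TPM in G5 and 1887 TPM in G12, so G5 lay beside G3 and G12 beside G13. PSMD3, a subunit of the cap, was the only one at least 2-fold higher in G3, with 386 and 133 TPM, 2.89-fold higher in G3 (2.77 to 3.02). Nuclear-encoded respiratory chain subunits had a median of -0.39 (-0.22 with the trend removed), with 2 of 68 higher and 6 lower, against 18.8% and 2.37% of all genes. With the trend removed 5 were higher and 6 lower. Among them ATP5F1B, the catalytic subunit of ATP synthase, was 2.55-fold higher in G3 (2.50 to 2.61). NDUFA12 of complex I had the lowest ratio, at 29.4 against 81.8 TPM, with 27.6 TPM in G5 and 85.9 TPM in G12. Mitochondrial ribosomal proteins had a median of -0.29, with 0 of 74 higher and 5 lower, against the same shares of all genes, and 1 higher and 6 lower with the trend removed.

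Cytosolic ribosomal protein genes, which have many near-identical copies in the genome, had a median of 0.00 and 3 of 71 higher with 2 lower, against 18.8% and 2.37% of all genes, and the median moved to 0.36 with the trend removed. Its sign changed in 3 of 7 settings, so no direction is given. Mitotic genes had a median of -0.17 and DNA replication genes of -0.05, with CDT1, a licensing factor, at 51.4 against 2.20 TPM and TOP2A at the other end. Glycolytic enzymes had a median of 0.31 that turned to -0.35 with the trend removed; PKM had 4726 and 3824 TPM. Cholesterol synthesis genes had a median of 0.33 and 0.01, led by SREBF2, which encodes the transcription factor of the pathway, with 122 and 4.32 TPM.

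**Figure D4:**
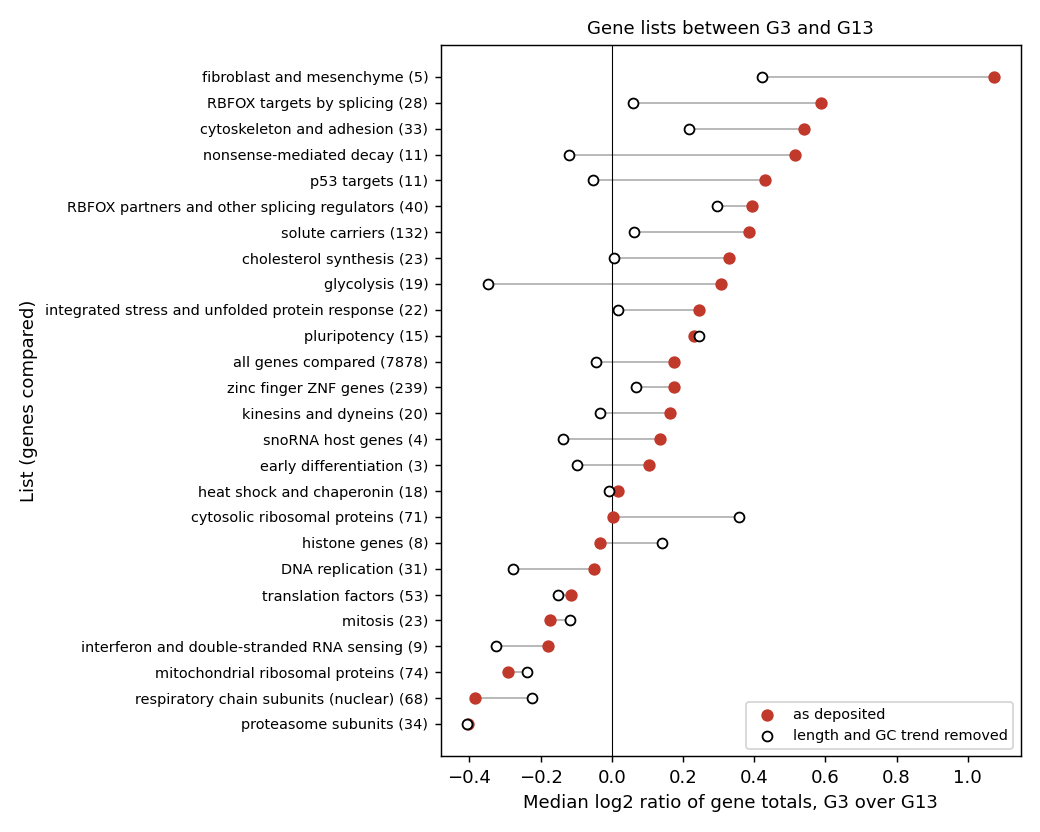
Median log2 ratio of gene totals, G3 over G13, of each gene list (number of genes compared in brackets), as deposited in red and with the length and GC trend removed in white. Most red points lie to the right, the proteasome list lies at -0.40 and -0.41, and glycolysis moves from 0.31 to -0.35.

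Some lists summarise small numbers or vary widely, and their counts stand against 18.8% higher and 2.37% lower over all genes. Genes of the integrated stress and unfolded protein response had a median of 0.25 (3 of 22 higher), with CALR, a chaperone of the endoplasmic reticulum, at 287 against 72.2 TPM. Targets of p53 had a median of 0.43 (3 of 11 higher), and PHLDA3 led them at 79.8 against 5.38 TPM; with the trend removed this median was -0.05. Interferon and double-stranded RNA sensing genes had a median of -0.18, with 2 of 9 higher and 2 lower. Heat shock and chaperonin genes lay at 0.02, translation factors at -0.11 with 9 of 53 higher, histone genes at -0.03, and kinesins and dyneins at 0.16 with 4 of 20 higher. The sign of the heat shock, histone, kinesin and early differentiation medians changed with the trend removed, and all of these but the histone median also changed sign under the median of ratios. ZNF genes, at 0.17, equalled the median of all genes; ZNF687 had 428 reads in G3 and 1 in G13. The fibroblast list had 5 genes compared, a median of 1.07 and 3 higher, among them COL1A1 (30.3 against 1.58 TPM), against 18.8% of all genes. With the trend removed its median was 0.42, with 0 higher and 1 lower. The snoRNA host genes had 4 compared and a median of 0.14 whose sign changed in 5 of 7 settings. No mitochondrially encoded gene passed the level needed to compare.

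Genes that stood farthest from the length and GC trend, among those with a mean of at least 20 TPM, were chosen after their values were seen. Above the trend, besides genes already named, was HES1, a transcriptional repressor that Notch signalling induces, with 150 TPM in G3 and 18.8 TPM in G13, 7.99-fold (7.21 to 8.87), at 49.9% GC and 1578 nt. LPCAT1, an acyltransferase of phosphatidylcholine synthesis, had 91.2 and 3.60 TPM. Below the trend were IGFBP2, PSMC3IP and TOP2A, already named, with TPGS1 (30.7 and 64.6 TPM) and RRP7A (252 and 491 TPM), all lower in G3. Also below it were some genes rich in G and C that were nearly equal in the 2 libraries. SNX8 had 24.9 and 25.1 TPM at 63.3% GC and 4727 nt, and CRIP2 had 31.8 and 30.9 TPM at 71.2% GC and 1857 nt. A high GC content therefore did not go with a high ratio in every gene, and in SNX8 a long transcript came with it.

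Isoform usage was compared in 7187 genes with at least 100 reads in each library. The median usage distance was 0.056, and 219 genes (3.05%) were at 0.3 or more. Over the 6982 genes with 100 reads in all 7 libraries, G3 and G13 had 204 such genes, fewer than control and G14 (266) and control and G13 (253), and the other pairs had between 10 and 149. Every listed isoform had a read in the control, so pairs with the control are not like for like with the rest. Their median distances ran from 0.056 to 0.070, against 0.055 for G3 and G13. Among pairs without the control, G3 and G13 had the most such genes. In the 219 genes, G3 was farther from the pooled other 5 libraries in 123 and G13 in 96, against 3451 and 3648 over all 7187 genes. The mean genomic span of the isoforms read was longer in G3 in 168 of the 219 and longer in G13 in 51; it differed by at least 10% in 93 and 14. Over all 7187 genes it was longer in G3 in 4399 and in G13 in 2697. The count of genes at 0.3 or more fell to 32 with reference-ID isoforms alone and to 109 with isoforms of at least 1 TPM on average, so it rests in large part on hashed and rare isoforms.

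The 10 genes with the largest distances, among 4275 with at least 500 reads in each library, were HNRNPL, ACTG1, RBFOX2, GATC, DEF8, TOP1, PTOV1, LUC7L3, DNMT1 and SGO1, from 0.642 down to 0.496. HNRNPL encodes a splicing regulator that binds CA-rich RNA. A hashed isoform at chromosome 19, 38836371 to 38849996, made up 75.3% of its reads in G3 (73.9 to 76.7) and 16.8% in G13 (14.7 to 19.1). Its share was 45.0% in the control, 38.2% in G5, 20.8% in G11, 16.6% in G12 and 37.8% in G14, so G3 stood above all and G13 beside G12. Isoforms that begin nearer the 3′ end, at 38847435 and 38846093, held 38.7% and 29.8% in G13 and 6.27% and 4.98% in G3.

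In ACTG1, which encodes gamma-actin and has close copies in the genome, the protein-coding ENST00000573283.7 held 80.2% in G3 (79.9 to 80.4) and 20.2% in G13 (19.9 to 20.5). ENST00000576544.6, which GENCODE 29 annotates as a target of nonsense-mediated decay, held 17.3% in G3 and 74.8% in G13. The other 5 libraries lay between 63.0% and 71.8% for the latter, so here G3 was the library apart, and G3 minus G13 was -57.6 points (-58.0 to -57.1). These annotated types were matched by transcript ID without its version number, and whether ENST00000576544.6 is degraded was not tested. The ACTG1 total was 5050 TPM in G3 and 2540 TPM in G13.

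In TOP1, DNMT1, LUC7L3 and GATC, the isoform that G13 gained most was shorter in genomic span than the one that G3 gained most. Some shortened hashed forms went the other way. In TOP1 a form at 41028812 to 41098337 held 29.6% in G3 and 9.51% in G13. In DNMT1 a form at 10151470 to 10194955 held 6.50% in G3 and 0.586% in G13. TOP1 encodes topoisomerase I, and its annotated ENST00000361337.3 held 38.5% in G3 (34.8 to 42.4) and 7.88% in G13 (6.07 to 10.2). A hashed form that starts at 41112780 on chromosome 20 and covers only the 3′ end held 17.8% and 54.8%, while the TOP1 totals were 35.2 and 29.5 TPM. DNMT1, the maintenance DNA methyltransferase, had 24.9% of its reads on ENST00000340748.8 in G3 (22.8 to 27.2) and 2.44% in G13 (1.66 to 3.58). A form confined to the 5′ end of the gene, at 10173095 to 10195111 on chromosome 19, held 26.8% in G3 and 64.3% in G13. The control stood at 3.87% and 53.1% in DNMT1, near G13, and at 24.4% and 23.6% in TOP1, between G3 and G13.

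LUC7L3, which encodes a protein of the U1 snRNP, had 33.2% on ENST00000240304.5 in G3 (30.8 to 35.8) and 5.84% in G13 (4.58 to 7.41). A form that ends early, at 50745991 on chromosome 17, held 23.4% and 63.6%. GATC, a subunit of the mitochondrial glutamyl-tRNA amidotransferase, had 64.2% on ENST00000551765.6 in G3 (61.8 to 66.6) and 25.3% in G13 (22.5 to 28.2). SGO1, which protects sister chromatid cohesion, differed without a change of span: ENST00000412997.6 held 27.2% and 3.37%, and ENST00000442720.5 12.3% and 24.9%. In DEF8 the short ENST00000610455.4 held 15.98% in G3 and 43.4% in G13, and in PTOV1 ENST00000599732.5 held 59.3% and 21.2%.

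**Figure D5:**
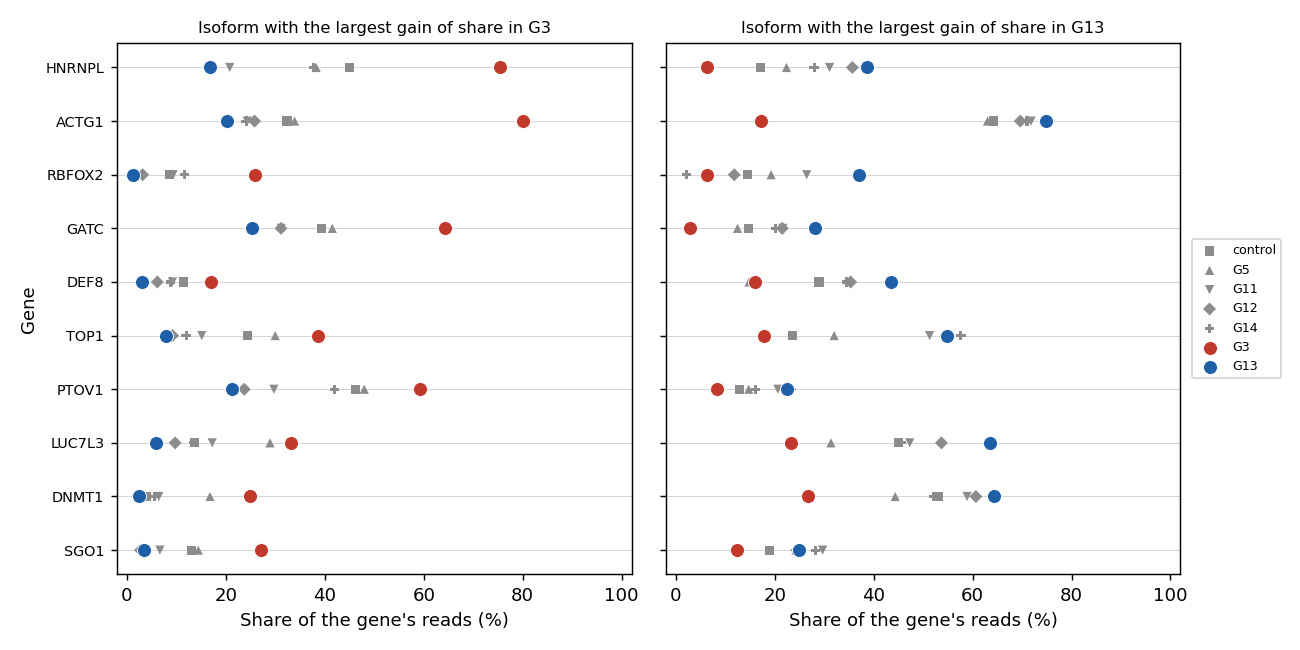
Share of a gene's reads (%) on the isoform that G3 gained most over G13 (left) and on the one that G13 gained most over G3 (right), in the 7 libraries, for the 10 genes of largest usage distance. G3 in red lies at or beyond the end of the other libraries in most rows, for example at 80.2% in ACTG1 on the left, and the other 5 libraries in grey lie mostly between G3 and G13.

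RBFOX target genes had a median usage distance of 0.122 over the 25 with at least 100 reads in each library, against 0.056 over all genes. With reference-ID isoforms alone the median was 0.044 over 20 targets, against 0.0092 over all genes compared in that setting.

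Among the targets at a distance of 0.3 or more were MARK3 (0.414), FGFR1 (0.336) and EPB41 (0.316). MARK3 had 55.1% on ENST00000303622.13 in G3 (52.3 to 58.0) and 36.0% in G13 (31.6 to 40.7), and a form with a later start, at 103405076 on chromosome 14, held 1.87% and 18.6%. NF2, the merlin tumour suppressor, had ENST00000338641.10 at 21.6% in G3 (17.9 to 25.8) and 45.2% in G13 (39.8 to 50.9), with spans nearly the same.

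ECT2, an exchange factor of cytokinesis whose alternative exon RBFOX2 is known to regulate, kept its span too. Its longer ENST00000392692.8 (4158 nt) held 64.6% in G3 (61.8 to 67.4) and 48.9% in G13 (46.5 to 51.4), and ENST00000232458.9 (4087 nt) held 14.6% (12.7 to 16.9) and 31.0% (28.8 to 33.3). For the latter the other libraries lay between 10.1% in the control and 19.4% in G12, so G13 was the library apart and G3 lay within the others. At the lower end EWSR1 had a distance of 0.015 with 29400 and 55717 reads, SNRNP70 0.047 and ACTN1 0.050. Among other lists, LIN28A (0.483) and DNMT3B (0.456) were the pluripotency genes at 0.3 or more, 2 of 14 against 3.05% of all genes. HNRNPL was the only one of 39 splicing regulators, a share near that of all genes.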

How the data were processed

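Polyadenylated RNA of 7 HUES66 cultures was read as full-length cDNA on the PacBio Revio. The authors deposited 1 table with, per the file headers, the count of full-length reads and the TPM of every isoform in each library. The submitters' processing notes name minimap2 2.17 and GRCh38 or hg38; other steps are not given in the sources used here. The deposited TPM equalled the count over 1 constant per library within 0.01, with no length term. Empty cells were read as 0, and isoforms were summed by the stem of the Ensembl gene ID. Ratios carry exact (Clopper-Pearson) and shares Wilson intervals at 95%; differences of shares use Newcombe's method. Reads have no molecular identifiers. GENCODE 29 gave the length and GC of transcripts for 98.2% of the genes compared, as means weighted by TPM. Named genes are RBFOX2 isoforms, the 10 highest and 10 lowest ratios at 20 TPM or more, the 10 largest usage distances at 500 reads or more, and the extremes and most abundant members of each list; others were named after their values were seen. The libraries, members and lists were chosen with earlier results of these data known. The computations ran in Python 3.11.15 (numpy 2.4.6, pandas 2.3.3, scipy 1.17.1) and were checked on simulated data. One listed gene is not reported here.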

Additional observations from a re-analysis of the deposited data

How the results depend on the processing

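No replicate could be left out and no paired analysis was possible because each group has 1 library. The count of genes at least 2-fold higher in G3 was 1478, and 2231 at a mean of 1 TPM, 675 at a mean of 20 TPM, 579 with the length and GC trend removed and 2419 at 1.5-fold. The count lower was 187, and 361 with the median of ratios, 504 with the trend removed and 846 at 1.5-fold. The SD of the log2 ratios was 0.994, and 0.839 at a mean of 20 TPM and 0.737 with the trend removed. The log2 ratio of RBFOX2 was -0.404, and -0.580 with the median of ratios and -0.174 in reference-ID isoforms. With reference-ID isoforms alone the proximal share differed by -21.4 points, the RBFOX2 usage distance was 0.220 and 32 genes were at a distance of 0.3 or more. The median distance was then 0.044 over RBFOX targets and 0.0092 over all genes. With isoforms of at least 1 TPM 109 genes were at a distance of 0.3 or more, and the median was 0.065 over RBFOX targets and 0.024 over all genes. With at least 500 reads 61 genes were at 0.3 or more. The cause of these moves was not tested, beyond the fewer genes or isoforms that a stricter filter leaves. Over the 20 named genes, 113 of 137 alternative values stayed within counting error of the main value, 24 moved and none changed sign. Of 175 alternative list medians, 111 stayed within 0.1 on the log2 scale and 64 moved further, with a change of sign in at least 1 setting for 9 of 25 lists. Low counts limit the ratios of FLNA, PTPRF and ZNF687 most.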
